A study of Mus musculus with 2 samples.

Results

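Arginine can leave a cell's pool by several routes, and 10 genes of these routes were followed across the cells of lupus-prone mouse kidneys. They were matched by symbol in the deposited count matrices, where all 10 were found among 31053 genes: the arginases *Arg1* and *Arg2*, the inducible nitric oxide synthase *Nos2*, the arginine-forming enzymes *Ass1* and *Asl*, the ornithine-using enzymes *Odc1* and *Oat*, the polyamine acetyltransferase *Sat1*, the creatine-forming enzyme *Gatm* and the cationic amino acid carrier *Slc7a2*. The study made 1 scRNA-seq library from pooled kidneys of old MRL-lpr mice and 1 from pooled kidneys of young MRL-lpr mice. Both ages carry the lpr allele of *Fas*, so there is no group without it, and an age effect cannot be told apart from a difference between these libraries. Cells passed a density gradient, an ILC enrichment kit and a sort of live cells, so shares of cells are not frequencies in the kidney. The labels give the ages as old and young only.

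Arginases split arginine into ornithine and urea, nitric oxide synthases use the same arginine to make nitric oxide, and argininosuccinate synthase and lyase build arginine from citrulline, a reaction for which the proximal tubule is known. Ornithine then feeds the polyamines through ornithine decarboxylase or glutamate and proline through ornithine aminotransferase, while glycine amidinotransferase spends arginine on creatine. *Arg1* is known from liver, from alternatively activated macrophages and from group 2 innate lymphoid cells (ILC2s), and *Arg2* encodes a mitochondrial arginase.

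After barcodes with under 200 genes or over 20% mitochondrial UMIs had been left out, 11429 young cells (median 7881 UMIs) and 10232 old cells (median 6933 UMIs) remained. Of the barcodes, 41 occurred in both libraries, 26 of them among kept cells. Cells with UMIs of *Ddx3y*, *Eif2s3y*, *Kdm5d* or *Uty* and none of *Xist* made up 50.8% of young and 40.6% of old cells, and cells with *Xist* only 14.6% and 29.1%, so each pool held cells of both sexes, where the study's methods name female mice unless stated otherwise. Classes were set by marker genes. For an ILC2, UMIs of *Gata3*, *Il2ra*, *Il1rl1* or *Il17rb*, at least 2 of these 4, were required and no UMI of *Cd3d*, *Cd3e*, *Cd3g*, *Foxp3*, *Mcpt8* or *Cpa3* was allowed, a proximal tubule (PT) cell had at least 4 of 10 tubule markers, and a macrophage at least 3 macrophage markers, such as the complement genes *C1qa*, *C1qb* and *C1qc*. This gave 1000 young and 278 old ILC2s, 6312 and 3511 PT cells, 73 and 46 macrophages, and 227 and 341 mononuclear phagocytes, which are cells of the macrophage or the monocyte gate and no other. Cells of several gates (7.80% and 11.7%) or of no gate (13.3% and 5.46%) were kept apart. *Il1rl1* UMIs stood in 83.8% and 92.1% of ILC2s against 1.51% and 0.37% of PT cells.

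A level in CPM is a gene's UMI count in a class, scaled to a class total of 1000000 UMIs, with its exact Poisson 95% interval. Clopper-Pearson 95% intervals go with shares of cells, and exact binomial ones with log2 ratios of CPM. All of them cover counting error only. With 1 library per age there was no test and no replicate error, and CPM is compared between classes, libraries or sexes of cell for 1 gene at a time, never between genes.

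*Arg1* stood higher in ILC2s than in T cells, PT cells and NK cells or ILC1s, and no UMI of it was counted in the myeloid classes named below. Its gene lies on the minus strand of chr10:24915221-24927484 (GRCm38). Young ILC2s held 586 *Arg1* UMIs, 111 CPM (102–120), and old ILC2s 80 UMIs, 54.4 CPM (43.1–67.6). The old value was 1.03 lower on the log2 scale (log2 ratio -1.03, -1.38 to -0.69). A UMI was found in 302 of 1000 young ILC2s (30.2%, 27.4–33.2%) and in 51 of 278 old ILC2s (18.3%), or in 7.73% and 4.03% once each cell was thinned to 1000 UMIs. The lower old level was found in cells of both sexes, with a log2 ratio of -1.14 (-1.69 to -0.64) in Y-linked-only and -0.97 (-1.59 to -0.40) in *Xist*-only ILC2s.

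In the myeloid classes, where *Arg1* would mark alternatively activated macrophages, no *Arg1* UMI was counted. Macrophages, monocytes, all mononuclear phagocytes and neutrophils had 0 in both libraries. A count of 0 in 227 young and 341 old mononuclear phagocytes allows 3 counts, which is 1.85 and 0.684 CPM, so the ILC2 level, taken at the lower end of its interval, was at least 55.2-fold and 63.0-fold higher. Against the fewer cells of the macrophage gate alone the bound was 12.9-fold and 13.3-fold, with the floor at 7.90 and 3.23 CPM. B cells also had no *Arg1* UMI in either library.

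PT cells were set beside the ILC2s. They held 77 *Arg1* UMIs in 46 of 6312 young cells, 0.692 CPM, and 6 UMIs in 6 of 3511 old cells, 0.0944 CPM. These are 0.624% and 0.174% of the ILC2 level. The ILC2 cytokine genes *Il5* and *Il13*, which PT cells should lack, reached 0.303% and 0.0157% of their ILC2 level in the same cells. *Arg1* thus lay above these cytokine genes on this scale in both libraries, and the part of carried-over RNA in its PT counts was not tested. ILC2s were 160-fold (young) and 576-fold (old) above PT cells in *Arg1*, and the young fold was larger with doublets left out.

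**Figure D1:**
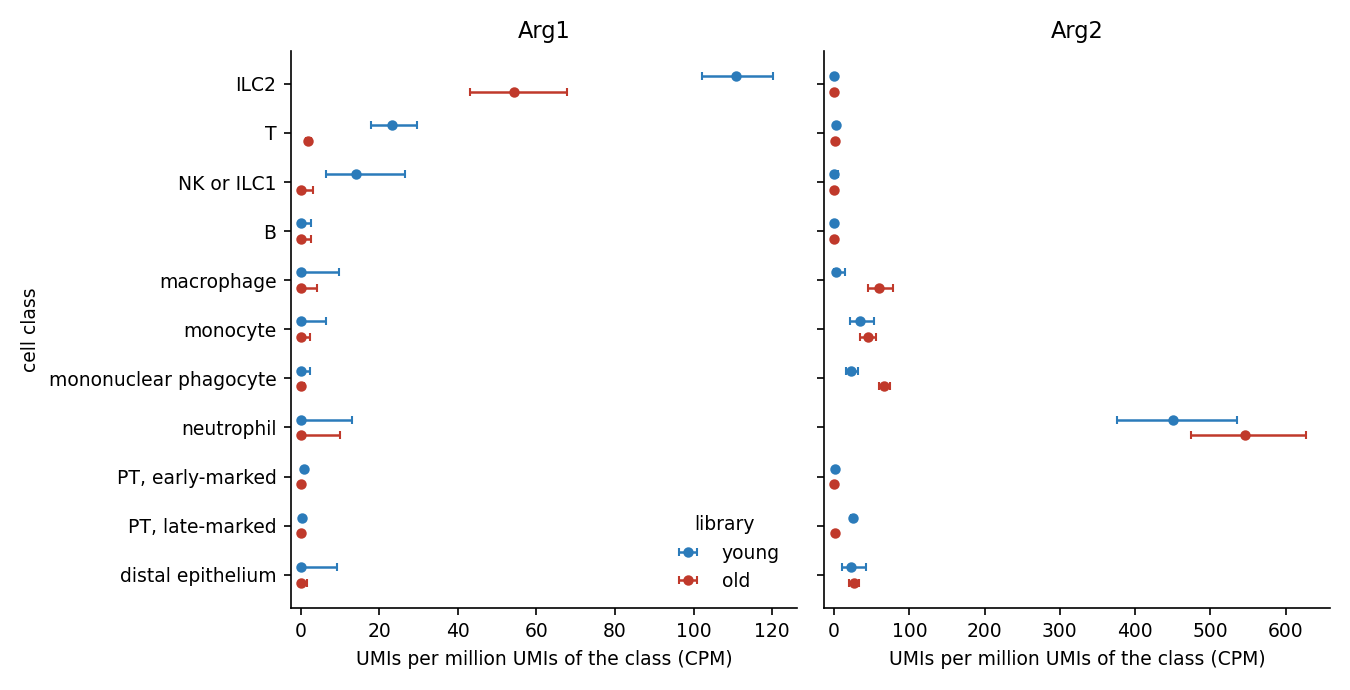
CPM of *Arg1* (left) and *Arg2* (right) in marker-gated classes of the young (blue) and old (red) library, with exact Poisson 95% intervals as bars on linear axes that differ between panels. *Arg1* stands highest in ILC2s, at 111 and 54.4 CPM, and at 0 in the myeloid classes, while *Arg2* stands highest in neutrophils, at 451 and 546 CPM.

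Within the ILC2s, *Arg1* was spread over many cells at low counts. Of the young ILC2s, 698 had none, 175 had 1 UMI, 101 had 2 to 4 and 26 had 5 or more, and the highest cell had 11. Of the old ILC2s, 227 had none, 35 had 1, 14 had 2 to 4 and 2 had 5 or more. *Xist*-only ILC2s stood above Y-linked-only ILC2s, at 142 against 94.6 CPM in the young library (log2 ratio of Y-linked over *Xist* -0.58, -0.86 to -0.31). In the old library they stood at 72.4 against 42.8 CPM, with a log2 ratio of -0.76 whose interval ended just short of 0.

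*Arg1* was also compared between ILC2s with and without type 2 cytokine transcripts. Young ILC2s with an *Il5* or *Il13* UMI had 97.7 CPM of *Arg1* (83.0–114) and those without had 117 (106–128). In the old library the values were 36.6 (17.6–67.3) and 58.4 CPM (45.5–73.8). Both pairs of intervals overlapped. *Areg*, the epidermal growth factor receptor ligand, stood at 1188 CPM in young ILC2s with *Arg1* and 1213 CPM in those without (log2 ratio -0.03, -0.11 to 0.05). In old ILC2s *Il13* was lower in the cells with *Arg1* (25.8 against 86.6 CPM), a comparison of 51 with 227 cells. In the young library *Il13* stood at 79.3 and 83.3 CPM (log2 ratio -0.07, -0.37 to 0.22). Other genes compared, such as *Il17rb* and *Klrg1*, also had old intervals that did not hold 0. Of the members compared, *Odc1* gave 0.22 (0.003 to 0.43) in young and -0.88 (-1.70 to -0.15) in old ILC2s with over without *Arg1*. *Sat1* gave -0.27 (-0.47 to -0.07) and 0.20 (-0.26 to 0.64), and both *Asl* intervals held 0.

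Some *Arg1* UMIs lay in cells that the ILC2 gate left out. Young T cells held 66 *Arg1* UMIs in 30 of 537 cells, and 23 of these 30 had an *Il1rl1* UMI against 4.73% of the other T cells. Old T cells held 39 UMIs in 17 of 3851 cells, of which 5 had *Il1rl1*. *Cd8a* UMIs stood in 7 of these 17 (23.6% of the other old T cells) and *Cd4* UMIs in 4 (30.8%). Of the 30 young T cells with *Arg1*, 0 had *Cd8a* and 1 had *Cd4*. Cells of no class held 596 young and 53 old *Arg1* UMIs, 40.6% and 28.6% of each library's total. Of the 249 young cells behind this, 203 had at least 2 ILC2 markers, 143 had a *Cpa3* UMI and 115 a CD3 UMI, either of which keeps a cell out of the gate. With *Cd3g* and *Cpa3* UMIs allowed, a choice made after the data were seen, there were 1490 young and 329 old ILC2s. *Arg1* then stood at 133 CPM (125–141) and 62.6 CPM (51.5–75.3). Young cells of this wider gate with *Cpa3*, a mast cell carboxypeptidase gene, had 160 CPM of *Arg1* (143–179), and those with *Cd3g*, a T cell receptor complex gene, had 218 CPM (192–246).

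Over 17 points of class and library with at least 50 cells, the genes whose log2(CPM + 1) followed *Arg1* most closely were *Olfr1258* (Pearson r = 0.94), *Fam124b* (0.94), *Tnfrsf25* (0.93), *Olfr1259* (0.93) and *Ccdc184* (0.90). *Tnfrsf25* encodes the receptor for the cytokine TL1A. The points share 2 libraries and differ in depth, so these values only rank patterns. *Tnfrsf25* stood at 84.4 CPM in young and 82.2 CPM in old ILC2s, where *Arg1* was lower in the old library.

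*Arg2* (chr12:79130777-79156301, plus strand) was highest in other cells and was nearly absent from ILC2s, with 2 UMIs in 1000 young and 0 in 278 old cells. Neutrophils had the highest level of any class, 451 CPM (376–536) in 123 young cells and 546 CPM (474–627) in 106 old cells. A UMI stood in 56.1% and 76.4% of them at medians of 2183 and 3321 UMIs, and in 34.4% and 36.2% after thinning. The old over young log2 ratio in neutrophils was 0.28 (-0.05 to 0.61), so no difference was seen beyond counting error.

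In mononuclear phagocytes *Arg2* was higher in the old library. Young cells gave 22.8 CPM (37 UMIs in 25 of 227 cells) and old cells 66.6 CPM (292 UMIs in 122 of 341 cells), a log2 ratio of 1.55 (1.05 to 2.08). The macrophage gate alone had 1 UMI in 73 young and 56 UMIs in 46 old cells. Monocytes gave 34.4 and 44.5 CPM (20 and 69 UMIs) with overlapping intervals. Most of the 292 old UMIs lay in phagocytes that met both gates, which were not described apart. Thinned to 1000 UMIs, 0.457% of young and 5.37% of old phagocytes had a UMI. Median depth moved with it, from 4636 UMIs in young to 14196 UMIs in old macrophages, and its part was not tested. Cells of several gates held 17.2% of the young and 51.1% of the old *Arg2* UMIs and are in none of these values.

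In PT cells the difference ran the other way. *Arg2* stood at 7.34 CPM in young PT cells (816 UMIs in 206 of 6312 cells) and at 0.724 CPM in old PT cells (46 UMIs in 27 of 3511 cells), a log2 ratio of -3.34 (-3.80 to -2.91). Of the 816 young UMIs, 672 came from PT cells that had more of the late markers *Slc7a13*, *Atp11a* and *Cyp7b1* than of the early markers *Slc5a2*, *Slc5a12* and *Slc4a4*. These late-marked cells rested on *Slc7a13* and *Atp11a*, since *Cyp7b1* was in only 4.62% of young and 0.747% of old ones. *Arg2* stood at 24.6 CPM in 1212 young late-marked cells and at 0.799 CPM in 669 old ones. In 3940 and 2182 early-marked cells it stood at 0.939 and 0.224 CPM, so late exceeded early by a log2 ratio of 4.71 (4.33 to 5.12) among young cells and 1.83 (0.42 to 3.33) among old cells. The old ratio rests on 12 late-marked and 8 early-marked UMIs. The largest part of the 46 old UMIs lay in PT cells with as many early as late markers, which this ratio leaves out.

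Of the 206 young PT cells with an *Arg2* UMI, 150 were late-marked, 24 early-marked and 32 had as many early as late markers. The 150 of 1212 late-marked cells differed from their neighbours in other genes, which were chosen after their values were seen. *Slc22a19*, an organic anion transporter gene, stood at 373 CPM in cells with *Arg2* and 18.4 CPM in cells without. *Serpina1f* stood at 266 against 2.37 CPM, and the prolactin receptor gene *Prlr* at 324 against 15.1 CPM. *Apoe*, the lipid carrier, stood at 661 against 17.9 CPM. The late marker *Cyp7b1*, part of the gate itself, stood at 94.5 against 1.21 CPM. Other members differed too: *Oat* was higher (161 against 67.1 CPM), while *Odc1* (293 against 972 CPM) and *Gatm* (27.0 against 370 CPM) were lower. Cells with *Arg2* were also deeper, with a median of 39402 against 15969 UMIs.

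Old late-marked cells had little of the same genes. *Slc22a19* stood there at 2.53 CPM, *Serpina1f* at 0.20 CPM, *Prlr* at 1.46 CPM and *Apoe* at 7.39 CPM, while the gate's own *Slc7a13* and *Atp11a* were in 98.4% and 96.9% of them. Fewer cells of this kind and less *Arg2* per cell cannot be told apart as the reason for the lower old PT value. In the young library, *Xist*-only late-marked cells had 106 CPM of *Arg2* (44 UMIs in 6 of 23 cells) and Y-linked-only ones 16.5 CPM (368 UMIs in 99 of 821 cells). In the old library 10 UMIs fell in 442 Y-linked-only and 0 in 9 *Xist*-only late-marked cells, which allows 26.9 CPM in the latter.

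**Figure D2:**
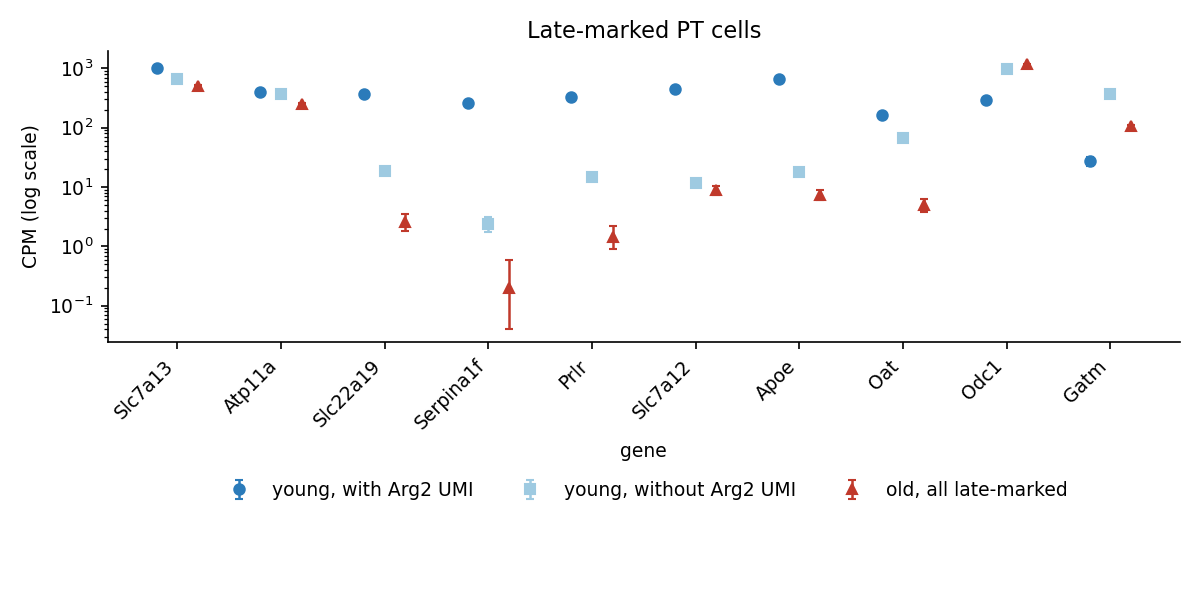
CPM, on a log axis with exact Poisson 95% intervals, of the late markers *Slc7a13* and *Atp11a*, 5 genes found beside *Arg2* and 3 members, in young late-marked PT cells with (dark blue) and without (light blue) an *Arg2* UMI and in all old late-marked PT cells (red). The 5 companion genes stand highest in the young cells with *Arg2*, as with *Prlr* at 324 against 15.1 and 1.46 CPM, and *Gatm* stands lowest there at 27.0 CPM.

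*Nos2* and *Slc7a2*, which give macrophages nitric oxide and the arginine for it, were rare. *Nos2* had 9 UMIs in the whole young library and 61 in the old one. Of the latter, 22 lay in 3 of 46 macrophages, with 12, 7 and 3 UMIs each, and 20 in 3 PT cells, with 10, 8 and 2. Neither class had any in the young library. *Slc7a2* stood at 0.616 CPM (1 UMI) in young and 5.93 CPM (26 UMIs in 10 of 341 cells) in old mononuclear phagocytes, against 0.638 and 0.409 CPM in PT cells. These values rest on few cells.

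*Ass1* and *Asl*, the arginine-building enzymes, were PT genes. *Ass1* lies on the plus strand of chr2:31470207-31520672 and stood at 3786 CPM in young and 4249 CPM in old PT cells, with UMIs in 98.3% and 98.8% of them. *Asl* (chr5:130011258-130029247, minus strand) stood at 243 and 315 CPM. Both were higher in old PT cells, by a log2 ratio of 0.17 for *Ass1* and 0.38 for *Asl*, and higher in early-marked than in late-marked cells (4187 against 3044 CPM for young *Ass1* and 285 against 179 CPM for young *Asl*).

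As a scale for carried-over RNA, such tubule transcripts in leukocytes were set beside 5 PT tracer genes (*Miox*, *Acsm2*, *Ttc36*, *Pck1* and *Cyp4b1*). The tracers were reduced to these 5 after the data were seen. How far values near the tracers' range depend on that choice was not tested. Summed, they reached 4.63% of their PT level in young ILC2s (range over the genes 4.08–5.67%) and 1.96% in old ILC2s (1.54–3.12%). *Ass1* in ILC2s was at 4.33% and 2.14% of its PT level and *Gatm* at 4.18% and 1.32%, so neither stood above the tracers' range. A UMI of *Ass1* was found in 55.3% of young ILC2s, and the part of carried-over RNA in these was not tested. *Asl* at 12.9% and 9.05%, *Odc1* at 18.3% and 12.0%, *Oat* at 16.5% and 24.2% and *Sat1* at 41.4% and 29.3% stood above the tracers' range in ILC2s.

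In mononuclear phagocytes the tracers were at 3.58% (3.04–5.02%) of PT in the young and 1.12% (0.916–1.58%) in the old library. *Ass1* at 4.46% lay within the young range, and its 4.51% in the old library lay above the old one. *Gatm* stood above the tracers in both, at 7.26% and 4.37%, and in the macrophage gate at 14.9% and 10.4% against tracers of 4.79% and 0.827%. Young macrophages thus had 216 CPM of *Gatm* (172–268) and old ones 112 CPM (91.5–136).

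**Figure D3:**
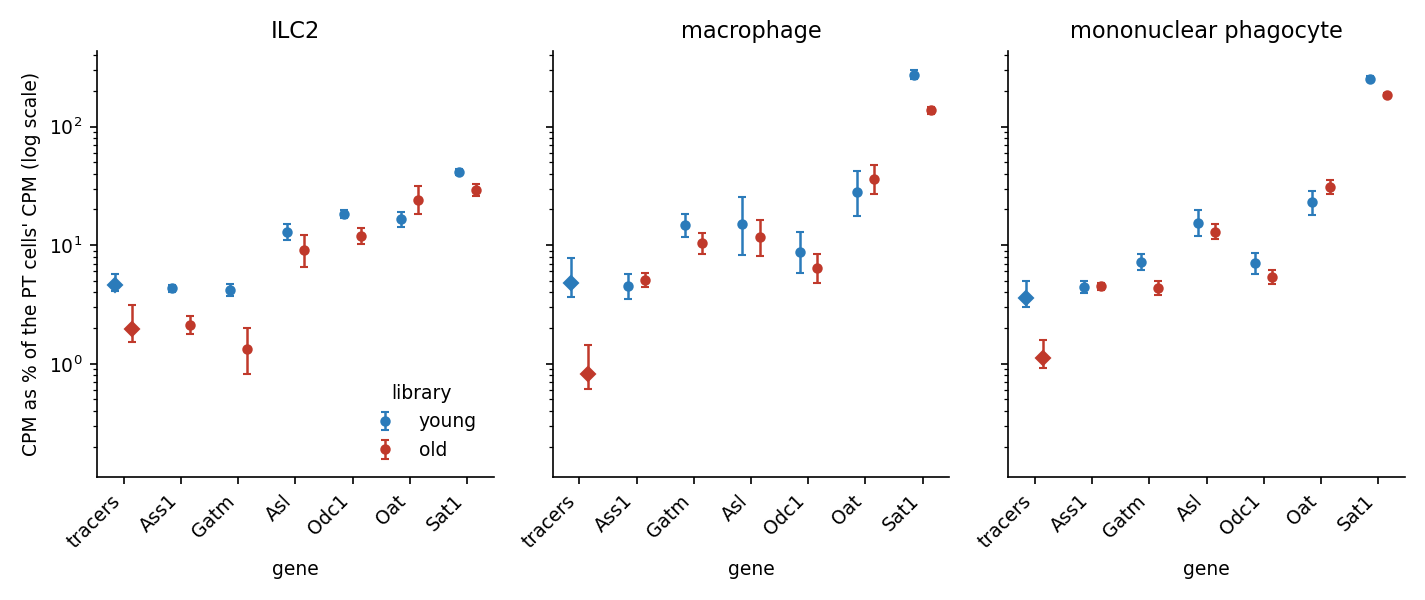
CPM of 6 members in ILC2s, macrophages and mononuclear phagocytes as a percentage of the same library's PT level, on a log axis, with exact Poisson 95% intervals of the class's own count. Diamonds give 5 summed PT tracer genes, with bars from the lowest to the highest tracer. *Ass1* and *Gatm* do not lie above the tracers' range in ILC2s, and *Sat1* exceeds the PT level in phagocytes, at 253% and 186% in mononuclear phagocytes.

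*Gatm* (chr2:122594467-122611303, minus strand), which starts creatine synthesis, differed between the PT cells with early and with late markers. It stood at 2228 CPM in young and 1712 CPM in old early-marked cells and at 297 and 105 CPM in late-marked cells. Early exceeded late by a log2 ratio of 2.91 (2.87 to 2.94) among young cells and 4.03 (3.95 to 4.10) among old cells. *Oat*, the aminotransferase that turns ornithine towards glutamate and proline, followed the same order, at 286 against 87.1 CPM in the young library. In old cells it stood at 253 CPM in early-marked and 4.93 CPM in late-marked cells, with UMIs in only 37 of the 669 late-marked cells. These *Oat* values pool cells of both sexes. *Xist*-only cells made up 17.1% of young and 21.3% of old early-marked cells, but 1.90% and 1.35% of late-marked ones.

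Ornithine decarboxylase, the entry to the polyamines, was spread more evenly. *Odc1* stood at 756 and 827 CPM in young early-marked and late-marked cells and at 691 and 1169 CPM in old ones. The old over young log2 ratio was -0.13 (-0.15 to -0.11) in early-marked and 0.50 (0.47 to 0.53) in late-marked cells. These ratios pool cells of both sexes. Y-linked-only cells made up 50.7% of young and 41.9% of old early-marked cells, and 67.7% and 66.1% of late-marked ones. *Sat1* (chrX:155213132-155216449, minus strand) was higher in late-marked cells of both libraries, at 618 against 363 CPM among young and 689 against 518 CPM among old cells.

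**Figure D4:**
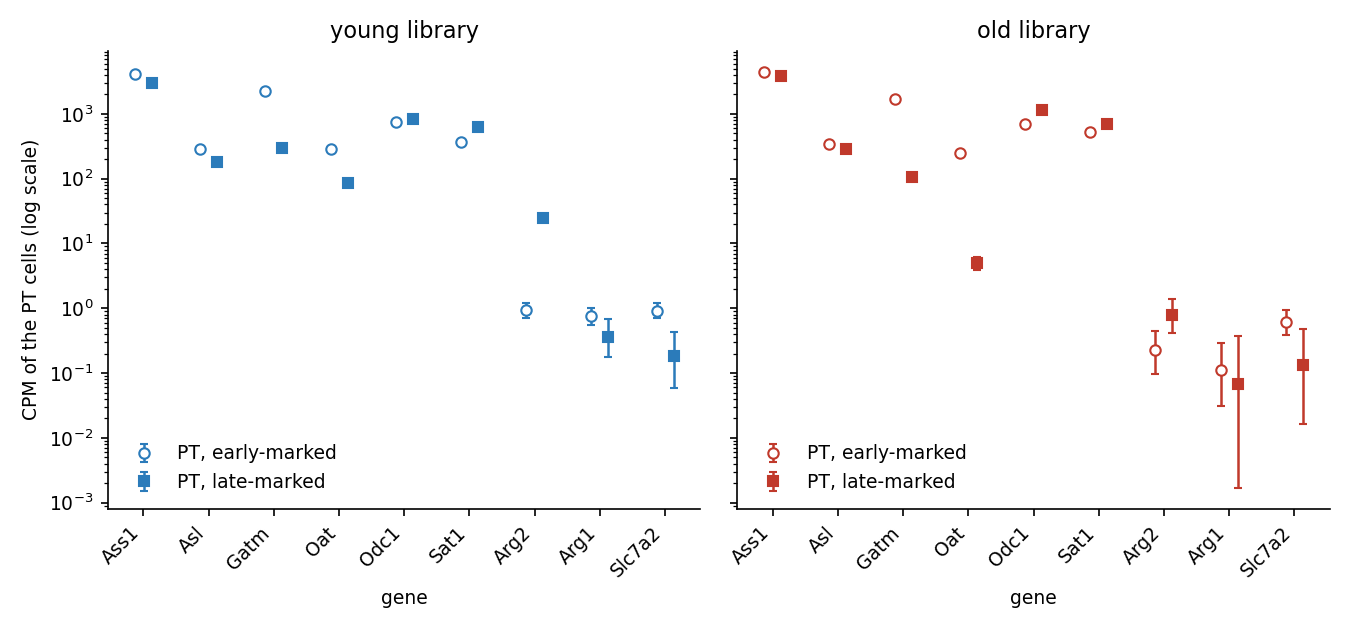
CPM, on a log axis with exact Poisson 95% intervals, of 9 members in early-marked (open circles) and late-marked (filled squares) PT cells of the young (left) and old (right) library. *Gatm* and *Oat* stand lower in late-marked cells, *Odc1* and *Sat1* higher, and *Arg2* in young late-marked cells reaches 24.6 CPM against 0.799 CPM in old ones.

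*Odc1* and *Oat* differed in opposite directions between PT cells with Y-linked UMIs only and PT cells with *Xist* only, and their upstream sequences are shown for that reason. RefSeq promoters on GRCm38.p6 were matched for 5 of the 10 members. The bases below end at the start of the annotated gene, with the *Odc1* sequence on the plus strand at chr12:17544623-17544793 and the *Oat* sequence on the minus strand at chr7:132576399-132576648. Of the *Odc1* bases 77.2% were G or C, and of the *Oat* bases 60.0%. The matched promoters were searched for the motif AGAACA. It had 0 matches in *Odc1*, *Oat*, *Ass1* and *Gatm*, and 1 match in *Sat1*. The share of all promoters with a match was 11.5% for the sequence length of *Odc1* and 16.1% for that of *Oat* and *Sat1*. It was 12.5% for the length of *Ass1* and 14.6% for that of *Gatm*. Most promoters thus had no match, and a count of 0 does not set *Odc1* or *Oat* apart. Whether these sequences bear on the difference between the cells was not tested.
Odc1: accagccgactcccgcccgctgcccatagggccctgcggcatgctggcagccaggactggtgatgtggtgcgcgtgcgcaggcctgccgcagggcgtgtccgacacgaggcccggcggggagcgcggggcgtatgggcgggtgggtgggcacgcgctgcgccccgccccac
Oat: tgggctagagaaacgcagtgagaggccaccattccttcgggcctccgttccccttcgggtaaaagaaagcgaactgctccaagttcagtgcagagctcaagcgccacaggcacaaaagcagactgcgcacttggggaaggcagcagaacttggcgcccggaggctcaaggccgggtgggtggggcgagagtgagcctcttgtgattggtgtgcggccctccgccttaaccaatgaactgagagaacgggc

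These cells come from different animals of 1 pool per age, so the sex and the animal cannot be told apart. In PT cells with Y-linked UMIs only, *Odc1* reached 872 CPM (young) and 1020 CPM (old), against 486 and 342 CPM in those with *Xist* only. The log2 ratio of Y-linked over *Xist* was 0.84 (0.81 to 0.88) and 1.58 (1.52 to 1.63). *Oat* went the other way, at 157 and 71.8 CPM in Y-linked-only and 370 and 355 CPM in *Xist*-only PT cells, with log2 ratios of -1.23 (-1.28 to -1.18) and -2.30 (-2.38 to -2.23). Late-marked cells were seldom *Xist*-only (1.90% and 1.35%, against 17.1% and 21.3% of early-marked cells), so the ratios were taken within early-marked cells as well. There *Odc1* gave 0.71 and 1.27, *Oat* -0.71 and -1.36, and *Ass1* 0.58 and 0.72. *Gatm* gave -0.04 and -0.37 there, against -0.62 and -1.07 over all PT cells. *Asl* and *Sat1* lay between -0.12 and 0.03 in early-marked cells.

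**Figure D5:**
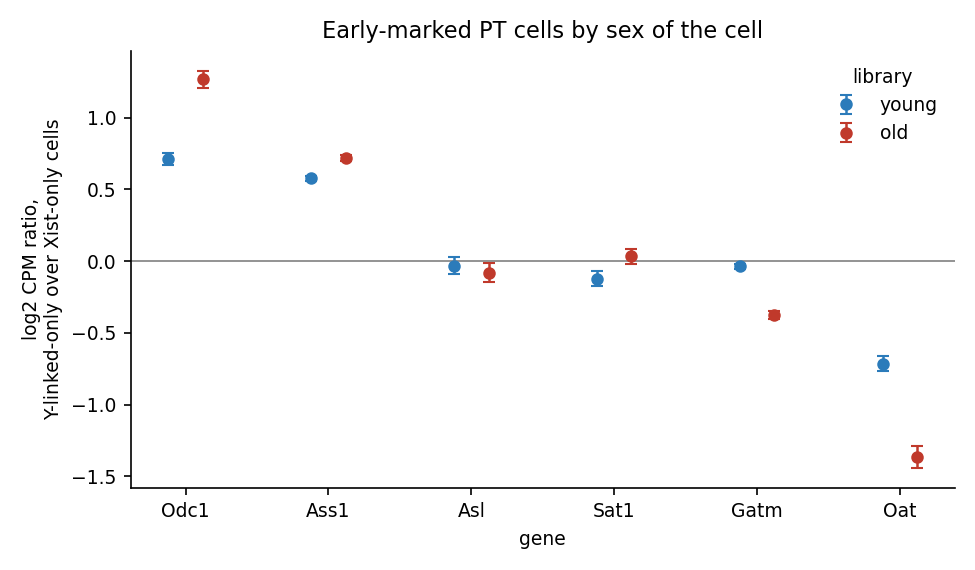
Log2 ratio of CPM in early-marked PT cells with Y-linked UMIs only over those with *Xist* UMIs only, for 6 members in the young (blue) and old (red) library, with exact binomial 95% intervals. *Odc1* (0.71 and 1.27) and *Ass1* (0.58 and 0.72) lie above 0, and *Oat* (-0.71 and -1.36) lies below it.

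*Sat1*, which acetylates spermidine and spermine for export or breakdown, was highest in myeloid cells. Young mononuclear phagocytes had 1168 CPM (1116–1222) and old ones 1108 CPM (1077–1139), and neutrophils 824 and 847 CPM. PT cells had 462 and 596 CPM, and ILC2s 191 and 175 CPM. Monocytes, at 1150 and 1217 CPM, and macrophages, at 1264 and 815 CPM, did not keep 1 order between the libraries. *Odc1* was low in these phagocytes, at 56.7 and 47.7 CPM, against 147 and 105 CPM in ILC2s. *Oat* stood at 268 and 265 CPM in 34 young and 118 old distal epithelial cells, above its 207 and 157 CPM in PT cells. The makeup of the distal cells differed, with *Slc12a1*, a loop of Henle marker, in 79.4% of young and 42.4% of old ones.

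Few members differed between the ages by the 2-fold limit used here, counted over genes with at least 100 UMIs in both libraries together. In ILC2s 7 members were measured and 2, *Arg1* and *Gatm*, were at least 2-fold lower in the old library, where 2.02% of all 6667 genes were (3.45% in either direction). No member was higher, where 1.42% of genes were. *Gatm* stood at 60.8 and 14.3 CPM, neither above the tracers' range. The median log2 ratio of the 7 members was -0.48, and that of all genes was -0.03. The 7 include *Ass1*, also not above the tracers' range, and the tracers stood at 4.63% of PT in young and 1.96% in old ILC2s. The part of carried-over RNA in the members' median was not tested. In PT cells 1 of 7 members, *Arg2*, was lower, against 2.74% of genes (5.6% in either direction), and the median log2 ratio was 0.12 against -0.0005 over all genes tested. In mononuclear phagocytes 2 of 7 members passed, against 6.85% of 6055 genes in either direction. *Arg2* was higher (3.98% of genes) and *Gatm* lower (2.87%), and the median was 0.02 for members and for all genes. *Gatm* in these phagocytes was at 7.26% and 4.37% of PT, with the tracers at 3.58% and 1.12%. The part of carried-over RNA in its difference was not tested. None of the 3 members measured in the macrophage gate passed the limit in either direction, where 9.18% of 1851 genes were lower and 10.9% higher in the old library.

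Of the 42 other pathway genes, in 5 lists, the shares past the same limit are read against those over all genes. Of those measured, 1 of 18 passed the limit in ILC2s (*Aldh4a1*, a proline-catabolic dehydrogenase gene, log2 ratio -1.04), 1 of 32 in PT cells (*Gch1*, which makes the cofactor of nitric oxide synthases, 0.441 to 1.05 CPM) and 0 of 18 in mononuclear phagocytes, where 3.45%, 5.6% and 6.85% of all genes did. *Aldh4a1* stood higher in PT cells than in ILC2s, where the PT tracers were at 4.63% of PT in the young and 1.96% in the old library. The part of carried-over RNA in its ILC2 difference was not tested. *Cps1* and *Otc*, which complete the urea cycle in liver, had no UMI in ILC2s, PT cells or mononuclear phagocytes.

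Among transporters, *Slc3a2*, the heavy chain shared by several carriers, stood at 357 and 394 CPM in ILC2s, 182 and 161 CPM in PT cells and 223 CPM in phagocytes of both libraries. *Slc7a1*, the cationic amino acid carrier of many cells, stood at 61.5 and 48.2 CPM in ILC2s and at 1.01 and 1.31 CPM in PT cells. *Slc7a7*, the light chain of the basolateral carrier, showed the reverse, at 3.78 and 0.679 CPM in ILC2s and 148 and 170 CPM in PT cells, with 69.0 and 81.4 CPM in phagocytes.

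Around nitric oxide, *Gch1* stood at 15.1 and 18.3 CPM in ILC2s and 74.6 and 103 CPM in phagocytes. *Ddah1*, which breaks down methylated arginine inhibitors of nitric oxide synthase, was a PT gene at 465 and 430 CPM, as was *Agmat* at 11.5 and 6.03 CPM. Of the creatine genes, *Gamt*, the second enzyme of synthesis, stood at 48.3 and 34.0 CPM and the creatine carrier *Slc6a8* at 98.6 and 101 CPM in PT cells. Creatine kinase B (*Ckb*) stood at 125 and 63.8 CPM in phagocytes and at 0.360 and 0.614 CPM in PT cells. The proline genes *Prodh* (197 and 246 CPM) and *Aldh4a1* (222 and 178 CPM) stood higher in PT cells than in ILC2s and phagocytes.

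Of the 14 other polyamine genes, 14 had at least 100 UMIs in PT cells and 11 each in ILC2s and phagocytes. *Oaz1*, the antizyme that restrains ornithine decarboxylase, stood at 1258 and 986 CPM in ILC2s, 941 and 822 CPM in PT cells and 856 and 884 CPM in phagocytes. *Eif5a*, the translation factor that carries the spermidine-derived hypusine, stood at 693 and 592 CPM in ILC2s, 635 and 606 CPM in PT cells and 452 and 581 CPM in phagocytes. The largest of these differences between the libraries was a log2 ratio of 0.36 (0.24 to 0.48), for *Eif5a* in phagocytes.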

How the data were processed

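Libraries were made with 10x Chromium 3′ v3.1 from pooled kidney cells, 1 library per age. The authors aligned reads to mm10 and tallied UMIs in Cell Ranger 3.1.0, so the deposited matrices hold raw, unscaled counts. Doublets were scored with Scrublet in Scanpy 1.11.5, intervals computed with SciPy 1.17.1, tables handled with pandas 2.3.3 and NumPy 2.4.6 and plots drawn with Matplotlib 3.10.9, all under Python 3.11.15. Barcodes under 200 genes or over 20% mitochondrial UMIs were dropped, leaving 145647185 young and 119218130 old UMIs. Scrublet called 332 and 270 doublets, which were kept. CPM pools the UMIs of a class, so 1 deep cell can weigh on a rare gene, and reads of the 3′ end do not allow levels of different genes to be compared. A count of 0 was given a floor of 3 counts. Thinning to 1000 UMIs used seed 7. Gene positions came from GENCODE M21.

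The members and lists were chosen with earlier results of these data known. All 10 members are described, then the 2 genes of each other list with the highest mean CPM in ILC2s, PT cells and mononuclear phagocytes (in place of the planned macrophages), and the 5 genes most like *Arg1*. The fold calculation was tested on simulated data. The mononuclear phagocyte class and the wider ILC2 gate were added after the data were seen. Alternatives changed the gates, mitochondrial limit, doublets, scaling, sex of cell, depth, fold and UMI minimum, 1 at a time. Some genes that these rules name are not reported here, and the PT tracers were reduced to 5 genes after the data were seen.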

Additional observations from a re-analysis of the deposited data

Results flagged for a closer look

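Several members differed between the libraries in opposite directions in 2 groups of cells, each with an interval that does not hold 0. These differences between groups were not tested, since there is 1 library per age. *Arg2* had an old over young log2 ratio of -3.34 in PT cells and 1.55 in mononuclear phagocytes. *Odc1* had 0.23 in Y-linked-only and -0.51 in *Xist*-only PT cells, 0.12 in all PT cells and -0.48 in ILC2s, and -0.13 in early-marked and 0.50 in late-marked PT cells. The early-marked and late-marked values pool cells of both sexes. *Ass1* had 0.18 in Y-linked-only and -0.028 in *Xist*-only PT cells, and 0.17 in all PT cells and -0.85 in ILC2s, where its level was within the PT tracers' range.

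Outside the classes compared, cells of no class held 596 *Arg1* UMIs in the young and 53 in the old library, above the limit of 3 counts for a count of 0. In the young library 245 of the 249 cells and in the old library 24 of the 25 cells had at least 1 ILC2 marker.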

How the results depend on the processing

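Of 147 comparisons of 14 results with an alternative, 98 stayed within counting error or the same count, 48 moved and 1 reversed. The old over young log2 ratio of *Arg1* in ILC2s kept its direction in all 11 alternatives run for it, without a move. Log2 ratios below are young, then old, and the causes of the moves were not tested unless named. *Arg1* in ILC2s over the macrophage floor of 3 counts, from the ILC2 level itself (3.81 and 4.07), became 2.35 and 2.52 in Y-linked-only cells, 1.69 and 2.67 in *Xist*-only cells, and 1.16 and -0.76 in cells thinned to 1000 UMIs, where a ratio to 3 counts shrinks with the UMIs left. It was 4.02 (young) without abundant genes in the total and 5.73 (old) with cells of several gates placed in the first. *Arg1* in ILC2s over PT (7.32 and 9.17) became 6.83 and 7.92 as a mean of each cell's CPM. The young value was 8.22 without doublets, 7.74 in Y-linked-only, 6.43 in *Xist*-only cells and 6.91 with cells of several gates, and the old value 7.13 after thinning.

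*Arg2* in late-marked over early-marked PT cells (4.71 and 1.83) was 8.18 in young *Xist*-only cells and 0.11 in thinned old cells, so the old difference was not detectable at that depth. *Gatm* in early-marked over late-marked cells (2.91 and 4.03) was 3.02 and 4.13 without abundant genes, 2.45 and 3.76 as a mean of cells and 2.82 and 2.89 in *Xist*-only cells. It was 2.98 (young) at 10% mitochondrial UMIs, 2.59 (young) after thinning and 3.90 (old) in Y-linked-only cells. *Odc1* in Y-linked-only over *Xist*-only PT cells (0.84 and 1.58) was 0.78 and 1.49 without abundant genes, 0.89 and 1.46 as a mean of cells and 0.93 and 1.43 after thinning.

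The count of members past 2-fold in ILC2s (2) was 1 by the mean of cells, after thinning or with cells of several gates, and 0 in *Xist*-only cells. In PT cells (1) it was 2 in Y-linked-only cells, 3 with at least 20 UMIs, and 0 in *Xist*-only or thinned cells. In macrophages (0) it was 1 with 1 marker more, and 2 at a fold of 1.5, with at least 20 UMIs or with cells of several gates. Of the alternatives chosen after seeing the data, allowing *Cd3g* and *Cpa3* UMIs gave 4.07 over macrophages and 8.79 over PT for young *Arg1*, and mononuclear phagocytes in place of macrophages gave ratios of 5.91 and 6.31 and a count of 2. The mean of cells gives no ratio over the macrophage floor, and cells of 1 sex give no *Odc1* ratio between the sexes. No paired analysis was possible because each age has 1 library.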
